A study of Triticum aestivum with 6 samples.

Results

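The genes described here, 3 in number, encode candidate regulators of anthocyanin pigment and were followed in grain of purple-grained bread wheat (Triticum aestivum), with grain of white-grained wheat as the comparison. They were taken by identifier from the 107891 genes of the deposited table. TraesCS2A02G409400 is described there as a MYC-like regulatory protein, TraesCS4B02G397300 as an anthocyanin regulatory Lc protein and TraesCS7D02G166500 as a myb-related protein. They were chosen by their counts and FPKM in these same purple and white libraries, so those values are given as a description and without a test. RNA sequencing libraries were made from 3 samples of purple grain and 3 of white grain, all taken 30 days after flowering from pot-grown plants in a climate chamber. The labels do not name the 2 wheats, so grain colour cannot be told apart from any other genetic difference between them. Separate plants or pots for the 3 samples of a grain type are not stated either, and p-values therefore cover the spread between these samples alone, which may be technical.

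Anthocyanins of cereals are switched on by a complex of a MYB factor, a basic helix-loop-helix (bHLH, or MYC) factor and a WD40-repeat protein, which binds promoters of the pathway's enzyme genes. In maize, Lc belongs to the R family of bHLH genes, and C1 is the MYB partner; which copy is active in which tissue sets where pigment forms. In bread wheat, purple colour of the pericarp, the maternal outer layer of the grain, has been mapped to a MYC-type gene on chromosome 2A and a MYB gene on 7D. Whole grain was labelled here, so a level in the pericarp cannot be told apart from one elsewhere in the grain, and fewer cells of a type cannot be told apart from less RNA per cell.

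Library totals ran from 80898310 to 102868886 counts in purple grain and from 78660932 to 88002127 in white grain. Genes described as gliadin or glutenin, storage proteins of the starchy endosperm, held 8.23%, 8.998% and 21.3% of summed FPKM (the authors' level per gene, scaled for length and library size) in purple replicates 1, 2 and 3, against 16.9%, 10.5% and 19.4% in white replicates 1, 2 and 3. Of these 108 genes, 87 had counts in all 6 libraries. The labels call the tissue grain, but their extraction protocol names stems and buds; 87 genes of green tissue, encoding chlorophyll-binding and Rubisco small subunit proteins, held 0.0041% to 0.029% in purple and 0.0347% to 0.0412% in white grain. Oleosin, late embryogenesis abundant and Em genes, 23 markers of aleurone and embryo, held 0.0872% to 0.435% in purple and 0.0479% to 0.0685% in white grain. Purple replicate 3 was unlike purple replicates 1 and 2. It held 0.029% in the green tissue genes, against 0.006% and 0.0041% in replicates 1 and 2. In the aleurone and embryo markers it held 0.0872%, against 0.235% and 0.435%. In both shares it lay nearer to white grain than they did. Over tested genes its log2(FPKM + 1) had a Pearson r of 0.885 with purple replicate 1 and 0.8915 with purple replicate 2, whereas those libraries had an r of 0.945 between them. White replicate 1 stood apart in a similar way. It had an r of 0.913 with white replicate 2 and 0.898 with white replicate 3, which had 0.948 between them.

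All 3 regulators were higher in purple grain, with no overlap between grain types; of all 48492 tested genes, 13.3% had every purple library above every white one. The bHLH genes on 2A and 4B had no count in any white library, whereas the 7D MYB gene had a few counts in 2 of them. The Lc-type gene on 4B had the highest level of the 3 in every purple library.

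The MYC-like gene TraesCS2A02G409400, a bHLH factor, lies on the plus strand of chromosome 2A at 667010726 to 667015774 in the deposited coordinates. It had 164, 79 and 613 counts in purple replicates 1, 2 and 3, against 0 counts in each white library. In FPKM these were 0.779, 0.394 and 3.70 in the purple libraries. Purple replicate 3 was thus the highest and purple replicate 2 the lowest, a 9.38-fold range within the group. The mean was 1.62 ± 1.81 FPKM in purple grain (SD, n = 3), where the SD exceeds the mean. Set against a floor of 3 counts per white library, purple grain was at least 99.7-fold higher, and at least 35.3-fold higher without purple replicate 3. A count of 0 allows a level of up to 0.0341 to 0.0381 CPM (counts scaled to library total) in the white libraries, counting error only.

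The Lc-type gene TraesCS4B02G397300, named after the maize bHLH activator, lies on the plus strand of 4B at 671696059 to 671698835. Its counts were 577, 279 and 1069 in purple replicates 1, 2 and 3, and 0 in each white library. The purple levels were 4.33, 2.20 and 10.2 FPKM, with a mean of 5.57 ± 4.13 FPKM (SD, n = 3). The order of the purple libraries was the one seen for the 2A gene, and the range was narrower at 4.62-fold. Purple grain was at least 216-fold higher, and at least 124-fold higher without purple replicate 3. That mean lay above the purple mean of 67.6% of the 48492 genes tested, compared with 30.9% for the 2A gene.

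The myb-related gene TraesCS7D02G166500, of the class that partners bHLH factors in the complex, lies on the plus strand of 7D at 117242813 to 117245836. It had 144, 32 and 38 counts in purple replicates 1, 2 and 3, against 8, 0 and 17 counts in white replicates 1, 2 and 3. The levels were 1.43, 0.333 and 0.479 FPKM in purple grain and 0.0966, 0 and 0.188 FPKM in white grain. Here purple replicate 1, not purple replicate 3, was the highest, and the lowest purple library lay 15 counts above the highest white one. The means were 0.748 ± 0.597 FPKM in purple and 0.0948 ± 0.0939 in white grain (SD, n = 3 each). In TMM-scaled CPM the purple mean was 7.54-fold the white one. It was 4.23-fold without purple replicate 1 and 14.1-fold without white replicate 3.

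**Figure D1:**
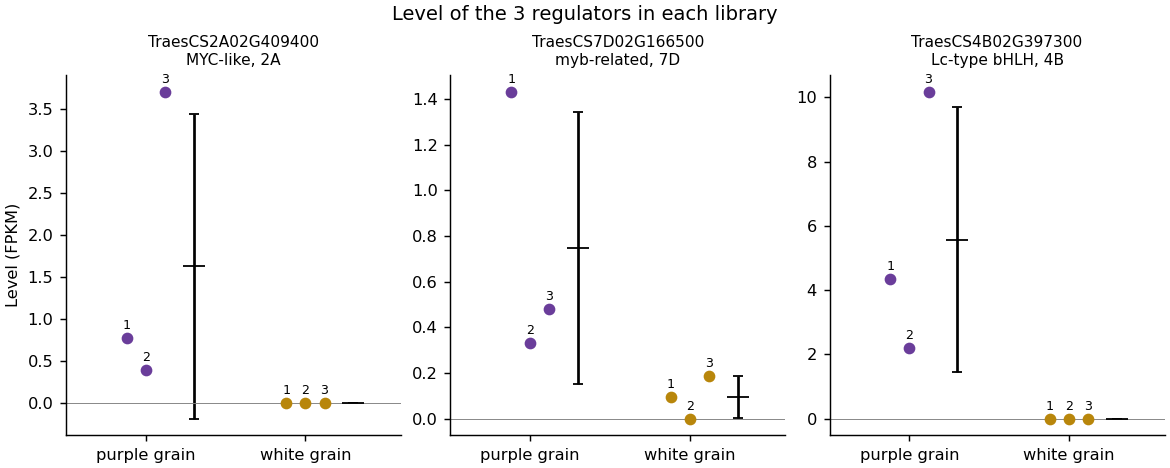
FPKM of each regulator (vertical axis, linear, a separate range per panel) in the 3 purple and 3 white libraries, each point 1 library with its replicate number; the bar gives mean and SD. The 2A and 4B genes are highest in purple replicate 3 (3.70 and 10.2 FPKM) and 0 in all white libraries, while the 7D gene is highest in purple replicate 1 (1.43 FPKM).

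The proportions of the regulators to one another differed between purple libraries. The 4B level was 5.56, 5.59 and 2.75 times the 2A level in purple replicates 1, 2 and 3. Relative to the 7D MYB gene, the 4B level was 3.02, 6.62 and 21.2 times as high. The 2A level was 0.544, 1.18 and 7.72 times the 7D level, so the 7D gene exceeded the 2A gene in purple replicate 1 only. Purple replicate 3, where both bHLH genes peaked, also had the highest storage protein share of the 3 purple libraries; the part of this difference in their levels was not tested. Over all 6 libraries, log2(FPKM + 1) of the 2A and 4B genes had a Pearson r of 0.935, of the 4B and 7D genes 0.706 and of the 2A and 7D genes 0.482. These describe 6 points that share the split between grain types.

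The annotation of the table groups the bHLH pair. Both carry the KO number K13422 and the pathway of plant hormone signal transduction, with the nucleus as their only GO term. The 7D gene carries 10 GO terms, among them DNA binding, flavonoid biosynthetic process and responses to auxin, ethylene and salt stress. Its KO number, K02259, is filed in the table under oxidative phosphorylation and porphyrin metabolism, and was shared with many other MYB descriptions.

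Most other genes of the R family were silent or nearly so in both wheats. Besides the 2A and 4B genes, 14 genes are described as anthocyanin regulatory Lc or R-S proteins. Of these, 6 had counts in purple grain and 0 had counts in white grain. Among all 80138 genes with a count in any library, 8.83% were counted in purple grain only and 6.14% in white grain only. On that base, 6 of the 14 genes remain, and all 6 were counted in purple grain only. Summed over the 14 genes, the level was 0.900, 0.443 and 0.987 FPKM in purple replicates 1, 2 and 3, against 0 in each white library. Near-identical copies can share reads, and no sequence was compared, so the low counts of single copies are uncertain.

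TraesCSU02G029400, an Lc-type gene without an assigned chromosome, had the most counts of the 14. It had 146, 97 and 105 counts in purple replicates 1, 2 and 3 and 0 in each white library, or 0.441 ± 0.076 FPKM in purple grain (SD, n = 3). Purple grain was at least 36.7-fold higher. The gene lay below the level of 0.5 FPKM required for testing. It was called in the edgeR quasi-likelihood fit without that filter (adjusted p = 0.0128), where 2.29% of 80138 genes were called higher. It was named after its values were seen, and it varied less between purple libraries than the 2A and 4B genes.

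TraesCS4B02G397400, the annotated gene directly after the 4B regulator and of the same description, starts 7.53 kb beyond its start. It had 59, 7 and 43 counts in purple replicates 1, 2 and 3 and 0 in each white library, and was not called without the filter (edgeR adjusted p = 0.0813). One more Lc-type copy, TraesCS4B02G397800, 68.8 kb from the regulator's start, had 0 counts in every library. On 5A, TraesCS5A02G489500 had 19, 0 and 21 counts and TraesCS5A02G558500 had 6, 0 and 24 counts in purple replicates 1, 2 and 3, with 0 in white grain. All 4 counted Lc-type copies other than the regulator were at 0 or at their lowest in purple replicate 2, where the regulator was lowest too.

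**Figure D2:**
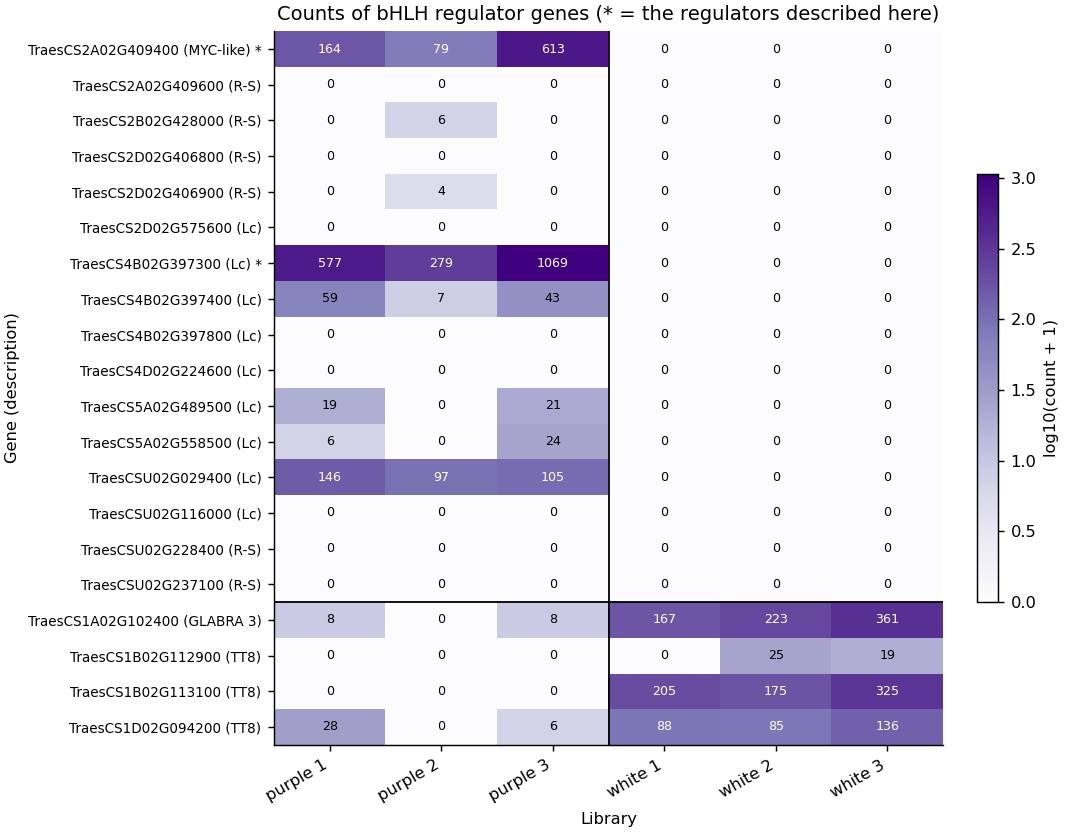
Counts of the 20 genes of the R-type bHLH list (rows) in the 3 purple and 3 white libraries (columns), printed in each cell and coloured by log10(count + 1); asterisks mark the 2A and 4B regulators. Genes described as Lc, R-S or MYC-like have 0 counts throughout white grain, and the 4 genes described as TT8 or GLABRA 3 have most of their counts in white grain.

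Genes described as TT8 or GLABRA 3, bHLH factors named after Arabidopsis regulators of seed-coat pigment and of epidermal hairs, had the opposite direction. Their summed counts were 36, 0 and 14 in purple replicates 1, 2 and 3, against 460, 508 and 841 in white replicates 1, 2 and 3. Both that were tested fell in purple grain, where edgeR called 2.32% of all 48492 tested genes lower (threshold of 0.05 on the adjusted p and of 1 on the absolute log2 difference). Both passed the level of 0.5 FPKM required for testing through white grain alone, with 1.07 and 1.37 FPKM there against 0 and 0.0257 FPKM in purple grain. That both were lower is thus partly set by the filter. Without it both were also called (edgeR adjusted p = 0.00668 and 0.0297). TraesCS1B02G113100, described as TT8, had 0 counts in each purple library and 205, 175 and 325 counts in white replicates 1, 2 and 3. It was at least 81.3-fold lower in purple grain (edgeR adjusted p = 0.0107). It lies at 131775571 on 1B; of the 37 other tested genes with a start within 10 Mb of it, 28 were called lower and 0 higher in purple grain, a window chosen after the values were seen. A change of this gene cannot be told apart from that of its surroundings.

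TraesCS1A02G102400, described as GLABRA 3, had 8, 0 and 8 counts in purple replicates 1, 2 and 3, against 167, 223 and 361 counts in white replicates 1, 2 and 3. Its fitted log2 difference was -5.54 with an SE of 1.05 (adjusted p = 0.0364 by edgeR), with 3 of 3 purple libraries below all white ones. Around it, 0 of 66 other tested genes within 10 Mb were called lower and 2 were called higher; before adjustment 5 were lower (edgeR p below 0.05), and 1 was called lower by DESeq2. The gene lost its call when purple replicate 1 (adjusted p = 0.0979), white replicate 2 (0.0918) or white replicate 3 (0.110) was left out. TraesCS1D02G094200, another TT8 description, was below the test level with 28, 0 and 6 counts in purple and 88, 85 and 136 counts in white grain. Without the filter it was not called (edgeR adjusted p = 0.172). TraesCS1B02G112900, close to the TT8 gene on 1B and of the same description, had 0 counts in each purple library and 0, 25 and 19 counts in white replicates 1, 2 and 3.

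Of the 144 regulator genes listed besides the 3 described here, 61 were tested, and edgeR called 0 higher and 2 lower, both of them the bHLH genes above. Before adjustment, 4 were higher and 11 lower (edgeR p below 0.05), and by DESeq2 2 were called higher and 5 lower. Their median log2 difference was -0.10, against 0.02 over all tested genes. Without purple replicate 3, edgeR called 2 higher and 3 lower; without purple replicate 1, white replicate 2 or white replicate 3 it called 1 lower. The MYB class made up 57 of the 61, and edgeR called 0 of them. It was taken by the wording myb-related protein, so it also holds genes such as those described as Myb-related protein 3R-1 or MYBAS2. Those descriptions name no role in pigment. The C1 genes were below the level required for testing, so the 57 are not a list of anthocyanin MYB genes. Before adjustment, 4 of these were higher and 8 lower (edgeR p below 0.05), and by DESeq2 2 were called higher and 3 lower.

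TraesCS1A02G275800 had the highest mean of the MYB class, with 11.5 ± 5.41 FPKM in purple and 27.7 ± 6.02 in white grain (SD, n = 3 each; edgeR adjusted p = 0.142). Both C1-type genes, named after the maize MYB partner of the R family, were near 0. TraesCS5A02G495500 had 12, 19 and 8 counts in purple replicates 1, 2 and 3 and 0 in each white library, and TraesCS4D02G319700 had 0, 0 and 4 counts in purple and 0, 8 and 0 in white grain. Neither passed without the filter (edgeR adjusted p = 0.148 and 0.896). The WD40 class held 2 tested genes, both described as LWD1, a repeat protein of the same fold as the WD40 partner of the complex and known in Arabidopsis for a role in the clock. The more expressed one, TraesCS6A02G193300, had 4.42 ± 1.35 FPKM in purple and 8.75 ± 2.49 in white grain (SD, n = 3 each; edgeR adjusted p = 0.134).

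Counterparts on the other subgenomes were sought by description, KO number and position. For the 2A gene, 8 candidates on 2B and 2D were found, of which 3 shared descriptions with its 10 neighbours on each side. TraesCS2B02G428000 shared 4 such descriptions, and TraesCS2D02G406800 and TraesCS2D02G406900 shared 6 each. All 3 are described as R-S proteins, the maize seed-colour type of the R family. TraesCS2B02G428000 had 0, 6 and 0 counts in purple replicates 1, 2 and 3, TraesCS2D02G406900 had 0, 4 and 0, and TraesCS2D02G406800 had none; all were at 0 in white grain. A second R-S gene on 2A, TraesCS2A02G409600, 636 kb from the MYC-like gene, also had 0 counts in every library. Almost all counts of this group were therefore assigned to the 2A copy in purple grain. Near-identical copies can share reads, so the share of each copy is uncertain.

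For the 7D gene, 2 of 13 candidates shared neighbours. TraesCS7B02G070400, with the same description and 3 shared neighbours, had 13, 0 and 0 counts in purple replicates 1, 2 and 3 and 0, 12 and 8 counts in white replicates 1, 2 and 3. The groups overlapped. TraesCS7A02G165700, with 2 shared neighbours, had 0 counts in every library. For the 4B gene, 2 of 15 candidates shared neighbours, 1 each, and these were the Lc-type genes on 5A given above. The only candidates expressed enough to be tested shared no neighbour and were not called: TraesCS7B02G169900 (edgeR adjusted p = 0.159), TraesCS4A02G028900 (0.353) and TraesCS4D02G275500 (0.245). In the fit without the filter, 2 candidates for the 7D gene with no shared neighbour were called lower, where 1.69% of 80138 genes were. TraesCS7A02G030600, described as MYB39, had 0 counts in each purple library and 174, 87 and 14 in white replicates 1, 2 and 3 (adjusted p = 0.0499 by edgeR). TraesCS7B02G204800, described as MYB86, had 0 counts in each purple library and 45, 41 and 65 in white replicates 1, 2 and 3 (adjusted p = 0.0360 by edgeR). Both differed in the direction opposite to that of the 7D regulator, with which they share the KO number but neither the description nor a neighbour. No sequence was compared, so all genes named here are candidates by annotation only.

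Of the 95 genes starting within 2 Mb of one of the 3, 40 were tested, and edgeR called 1 higher and 0 lower in purple grain. Over all tested genes 2.87% were called higher and 2.32% lower. Of the 40, 6 had all purple libraries above all white ones and 8 had all below, where 13.3% and 19.9% of all tested genes did. The fitted log2 differences ran from -1.21 to 2.60 around the 2A gene, from -1.95 to 1.84 around the 4B gene and from -2.03 to 12.03 around the 7D gene, with a median of -0.08 over the 40. Before adjustment, 6 neighbours were higher and 2 lower (edgeR p below 0.05), and by DESeq2 4 were called higher and 0 lower. The count was 0 higher without purple replicate 2, white replicate 2 or white replicate 3, 2 higher without purple replicate 1, and 2 higher and 2 lower without purple replicate 3.

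Around the 2A gene, 0 of 14 tested neighbours were called by edgeR; before adjustment 1 was higher (edgeR p below 0.05), and 1 was called higher by DESeq2. The gene before it, TraesCS2A02G409300, had 23, 43 and 30 counts in purple and 36, 64 and 186 in white grain. The gene after it, TraesCS2A02G409500, described as an aci-reductone dioxygenase of the methionine salvage cycle by its chemical name, had 595, 557 and 471 counts in purple and 142, 543 and 274 in white grain (edgeR adjusted p = 0.280). Both flanking genes thus had counts in all 6 libraries, unlike the MYC-like gene between them. Around the 4B gene, 0 of 15 tested neighbours were called by edgeR, and again 1 was higher before adjustment (edgeR p below 0.05) and 1 by DESeq2. The gene before it, TraesCS4B02G397200, had 38, 31 and 101 counts in purple and 7, 21 and 22 in white grain (edgeR adjusted p = 0.275 without the filter).

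The neighbourhood of the 7D gene held the 1 called neighbour, TraesCS7D02G167000, described only as a predicted protein and starting 281 kb away. It had 8.33, 11.7 and 4.95 FPKM in purple replicates 1, 2 and 3, against 2.62, 1.16 and 1.20 FPKM in white replicates 1, 2 and 3. All purple libraries lay above all white ones, and the fitted log2 difference was 2.39 with an SE of 0.51 (adjusted p = 0.0495 by edgeR). The gene lost its call when purple replicate 1 (adjusted p = 0.106), purple replicate 2 (0.152), white replicate 2 (0.123) or white replicate 3 (0.154) was left out. The gene directly before the regulator, TraesCS7D02G166400, a hypothetical protein, had 0, 91 and 74 counts in purple replicates 1, 2 and 3 and 0 in each white library. The gene directly after it, TraesCS7D02G166600, a subtilisin inhibitor, had 0 counts in every library.

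TraesCS7D02G166100, a receptor-like kinase gene 773 kb before the regulator and named after its values were seen, had 6, 658 and 805 counts in purple replicates 1, 2 and 3 and 0 in each white library (edgeR adjusted p = 0.0912). For this gene and TraesCS7D02G166400 purple replicate 1 was the lowest purple library, whereas the regulator had its highest level there.

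**Figure D3:**
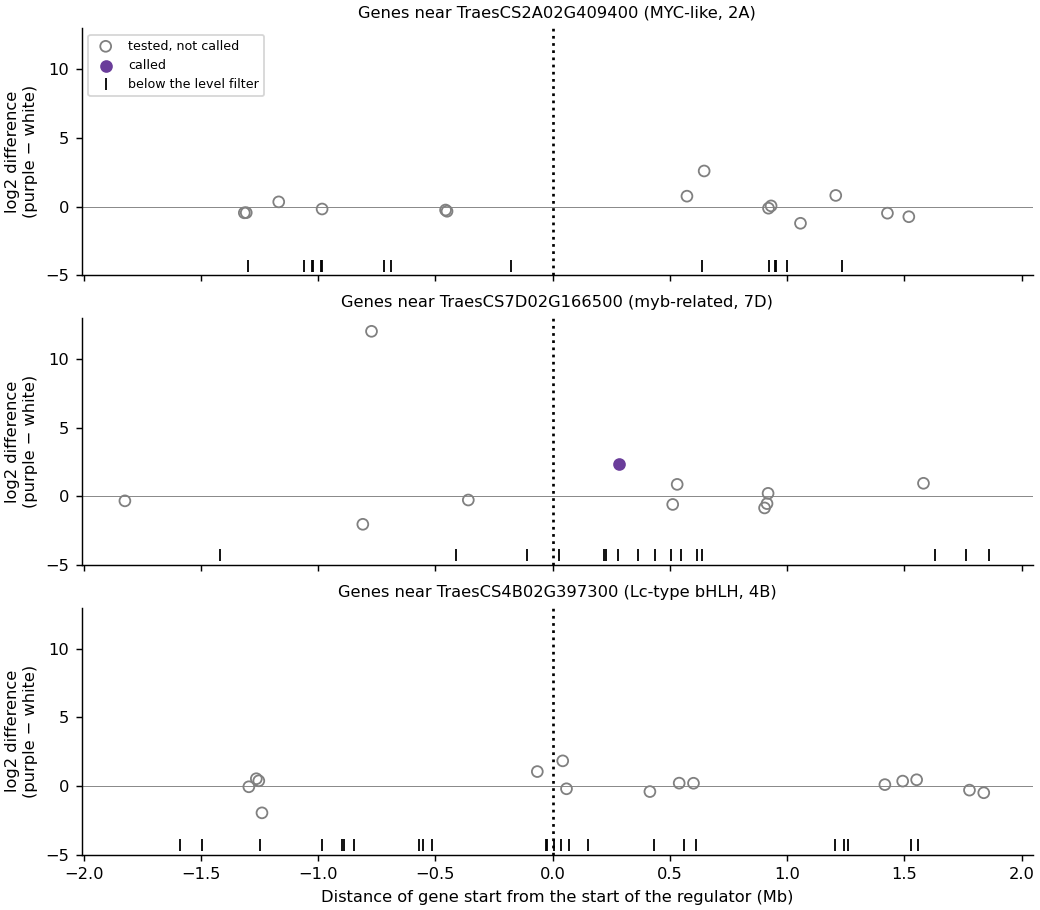
Fitted log2 difference (purple minus white, vertical axis) of the tested genes within 2 Mb of each regulator, by distance of their starts in Mb; filled points were called by edgeR, and short bars mark genes below the level filter. Of 40 tested neighbours 1 is called, 281 kb from the 7D gene; the open point near 12 in the 7D panel is a gene with 0 counts in white grain, whose fitted value depends on the prior count.

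The enzymes of the anthocyanin route include known targets of such regulators. By KO number, 147 of 372 listed genes were tested; edgeR called 4 higher and 3 lower in purple grain, while 2.87% and 2.32% of all tested genes were called in these directions. The median log2 difference of the list was 0.35, against 0.02 over all tested genes, and 97 of 147 values were above 0. Before adjustment, 24 were higher and 11 lower (edgeR p below 0.05), and by DESeq2 20 were called higher and 7 lower. With membership by description in place of KO number, edgeR called 10 higher and 2 lower of 126 tested. The edgeR counts by KO number were 7 higher and 6 lower without purple replicate 3, 1 and 0 without purple replicate 2, 2 and 0 without white replicate 2, and 1 and 1 without white replicate 3.

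Phenylalanine ammonia-lyase, the entry enzyme of the phenylpropanoid route, had 0 called genes of 32 by edgeR, although 26 of the 32 fitted values were above 0, with a median log2 difference of 0.88. Before adjustment 1 was higher and 1 lower (edgeR p below 0.05), and by DESeq2 2 were called higher and 1 lower.

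Chalcone synthase, the first enzyme of flavonoid synthesis, had 3 higher genes of 6 tested and 0 lower. Before adjustment 4 were higher and 1 lower (edgeR p below 0.05), and by DESeq2 4 were called higher and 0 lower. Of 40 listed genes, 16 had counts in any library. The 3 called ones passed the level filter through purple grain alone, so their share of the 6 is partly set by that filter. All 3 were also called without it (edgeR adjusted p of at most 0.0174). The one with the highest mean level and the smallest adjusted p, TraesCS2B02G048400, had 610, 293 and 278 counts in purple replicates 1, 2 and 3 and 0 in each white library (at least 122-fold higher; edgeR adjusted p = 0.00854). Its highest purple library was replicate 1, as for the 7D MYB gene and unlike both bHLH genes. The other 2, TraesCS2A02G527700 with 0.600, 2.75 and 2.24 FPKM and TraesCS2B02G558400 with 0.400, 1.90 and 1.61 FPKM in purple replicates 1, 2 and 3, were lowest in purple replicate 1 and at 0 in white grain (adjusted p of 0.0224 and 0.0264 by edgeR). Both were picked out after seeing their values. Without purple replicate 2, white replicate 2 or white replicate 3 these 2 calls were lost, with an adjusted p of up to 0.0907 and 0.106. That of TraesCS2B02G558400 was also lost with limma on log2(FPKM + 1), at an adjusted p of 0.0572. One copy ran the other way: TraesCS2A02G035300, also picked out after seeing its values, had 0 counts in each purple library and 409, 106 and 0 in white replicates 1, 2 and 3 (adjusted p = 0.136 by edgeR), so that the grain types overlapped at 0. No called chalcone synthase gene followed the order of purple libraries seen for the 2A and 4B regulators. These orders rest on 3 libraries, and a link of any regulator to these genes was not tested.

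Cinnamate 4-hydroxylase, which precedes chalcone synthase, had 1 higher gene of 12. Of the 12 fitted values, 11 were above 0, and their median log2 difference was 2.19. Before adjustment 7 were higher and 0 lower (edgeR p below 0.05), and by DESeq2 5 were called higher and 0 lower. TraesCS2D02G300200 had 48.6, 49.9 and 17.8 FPKM in purple replicates 1, 2 and 3, against 1.26, 4.48 and 1.31 FPKM in white replicates 1, 2 and 3 (fitted log2 difference 4.22 with an SE of 0.64, adjusted p = 0.0196 by edgeR). Its lowest purple library was replicate 3, where both bHLH regulators were highest. A link between them was not tested. Leaving out purple replicate 1 (adjusted p = 0.0536), purple replicate 2 (0.0732) or white replicate 3 (0.0716) ended the call.

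For 4-coumarate-CoA ligase, which activates hydroxycinnamic acids, edgeR called 0 of 30 tested genes higher and 2 lower in purple grain, while 19 of the 30 fitted values were above 0. Before adjustment 4 were higher and 2 lower (edgeR p below 0.05), and by DESeq2 2 were called higher and 2 lower. Of the called genes, TraesCS4A02G036200 had the smallest adjusted p, with 1.83 ± 0.168 FPKM in purple and 5.32 ± 0.532 in white grain (SD, n = 3 each; edgeR adjusted p = 0.0157). That call was lost without purple replicate 2 (adjusted p = 0.0692), white replicate 2 (0.0598) or white replicate 3 (0.0569). The other, TraesCS7B02G401000, described as a hypothetical protein and named here as the remaining call of 2, had 0.975 ± 0.171 FPKM in purple and 2.83 ± 0.595 in white grain (SD, n = 3 each; edgeR adjusted p = 0.0274). It lost its call without purple replicate 1 (adjusted p = 0.0604), purple replicate 2 (0.113), white replicate 2 (0.0648) or white replicate 3 (0.0840), and with limma on log2(FPKM + 1), where its log2 difference was -0.95. The anthocyanidin reductase KO, a branch to proanthocyanidins, held 1 lower gene of 22, TraesCS2D02G482100, which the table describes as leucoanthocyanidin reductase. It had 0.181 ± 0.0733 FPKM in purple and 1.57 ± 0.171 in white grain (SD, n = 3 each; edgeR adjusted p = 0.0213), and lost its call without purple replicate 1 (adjusted p = 0.0641), purple replicate 2 (0.0671), white replicate 2 (0.0716) or white replicate 3 (0.0681).

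Dihydroflavonol reductase, anthocyanidin synthase, flavanone 3-hydroxylase, flavonoid 3',5'-hydroxylase and anthocyanidin 3-O-glucosyltransferase had 0 genes called by edgeR. Of 8 tested dihydroflavonol reductase genes, which commit the route to anthocyanidins, 0 were called. Before adjustment 1 was higher and 1 lower (edgeR p below 0.05), as also by DESeq2. Their fitted log2 differences ran from -1.34 to 9.82, with a median of -0.23. The most expressed, TraesCS7D02G440000, had 7.07 ± 2.66 FPKM in purple and 6.24 ± 3.57 in white grain (SD, n = 3 each; edgeR adjusted p = 0.714). Of 5 tested anthocyanidin synthase genes by KO number, 0 were called by edgeR or DESeq2, while 2 were lower before adjustment (edgeR p below 0.05). The most expressed, TraesCS1A02G070200, described only as a predicted protein, had 5.70 ± 3.16 FPKM in purple and 13.6 ± 3.04 in white grain (edgeR adjusted p = 0.186). Flavanone 3-hydroxylase had 0 called of 6 by edgeR and 0 by DESeq2, and 0 had an edgeR p below 0.05 before adjustment. Its most expressed gene, TraesCS2B02G521500, had 3.14 ± 2.49 FPKM in purple and 4.94 ± 0.156 in white grain (edgeR adjusted p = 0.553). For flavonoid 3',5'-hydroxylase, 3 genes were tested and all 3 fitted values were above 0. Before adjustment 2 were higher and 0 lower (edgeR p below 0.05), as also by DESeq2. Of 2 tested anthocyanidin 3-O-glucosyltransferase genes, 1 had a fitted value above 0. Before adjustment 1 was higher and 0 lower (edgeR p below 0.05), as also by DESeq2. Chalcone isomerase, flavonoid 3'-hydroxylase and leucoanthocyanidin reductase also had 0 genes called by edgeR, of 5, 3 and 13 tested. Their median log2 differences were -0.81, 0.53 and 0.41. Before adjustment 1, 0 and 3 were higher and 0, 0 and 2 lower (edgeR p below 0.05). DESeq2 called 1, 0 and 2 higher and 0, 0 and 2 lower.

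**Figure D4:**
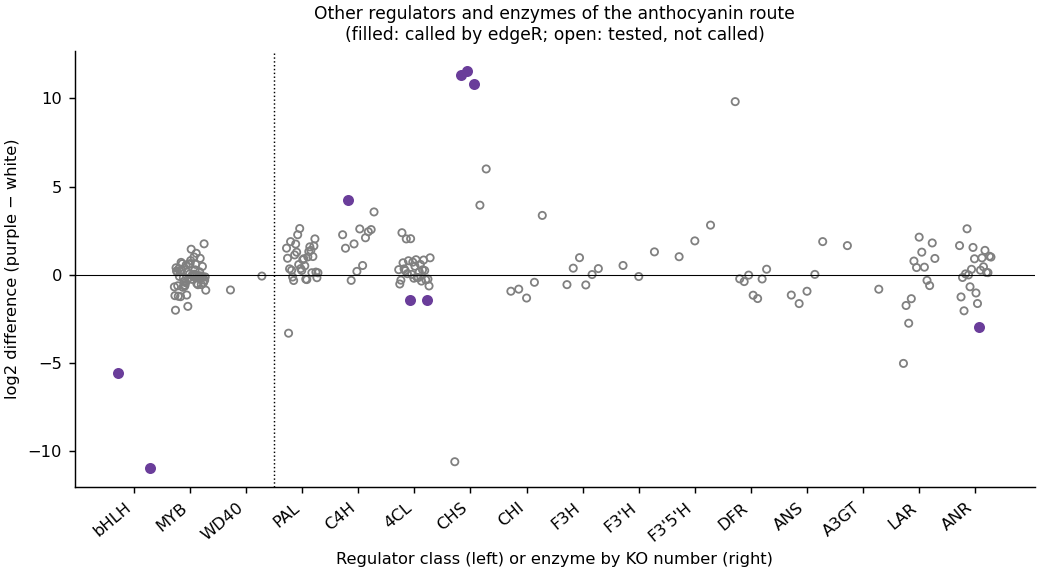
Fitted log2 difference (purple minus white, vertical axis) of tested genes in 3 regulator classes without the 3 regulators (left of the dotted line) and in 13 enzyme groups by KO number (right); filled points were called by edgeR. The 2 called regulators lie below 0 and the 3 called chalcone synthase genes above 10; fitted values of genes with 0 counts in a group depend on the prior count.

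Genes whose levels ran most like each regulator were found by Pearson r of log2(FPKM + 1) over the 6 libraries, among the 40490 other genes that averaged 1 FPKM or more. For the 2A gene these were TraesCS5A02G127100, described as a B3 domain protein, with an r of 0.998, TraesCS1B02G397500, a hypothetical protein, and TraesCS6D02G127800, a glutathione S-transferase, with an r of 0.996 each. The transferase had 101, 74 and 649 counts in purple replicates 1, 2 and 3 and 0 in each white library. Its highest and lowest purple libraries were those of the 2A gene.

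For the 4B gene they were TraesCS7D02G411100 (r = 0.9990), TraesCS6A02G317403 (r = 0.998) and TraesCS2B02G200500 (r = 0.996). The first is described as a predicted protein and carries the KO number K14488, and the second is described as a hypothetical protein. The last is described as like EGG APPARATUS-1, a maize protein of pollen tube guidance. The last had 743, 226 and 1206 counts in purple replicates 1, 2 and 3 and 8, 0 and 0 in white replicates 1, 2 and 3. For the 7D gene they were TraesCS3B02G573800 (r = 0.991), TraesCS3B02G173800 (r = 0.985) and TraesCS7B02G061200 (r = 0.984), none with an informative description. TraesCS3B02G573800 had 162, 35 and 31 counts in purple replicates 1, 2 and 3 and 7, 1 and 10 in white replicates 1, 2 and 3. These values rest on 6 points that share the split between grain types and are given as a description.

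**Figure D5:**
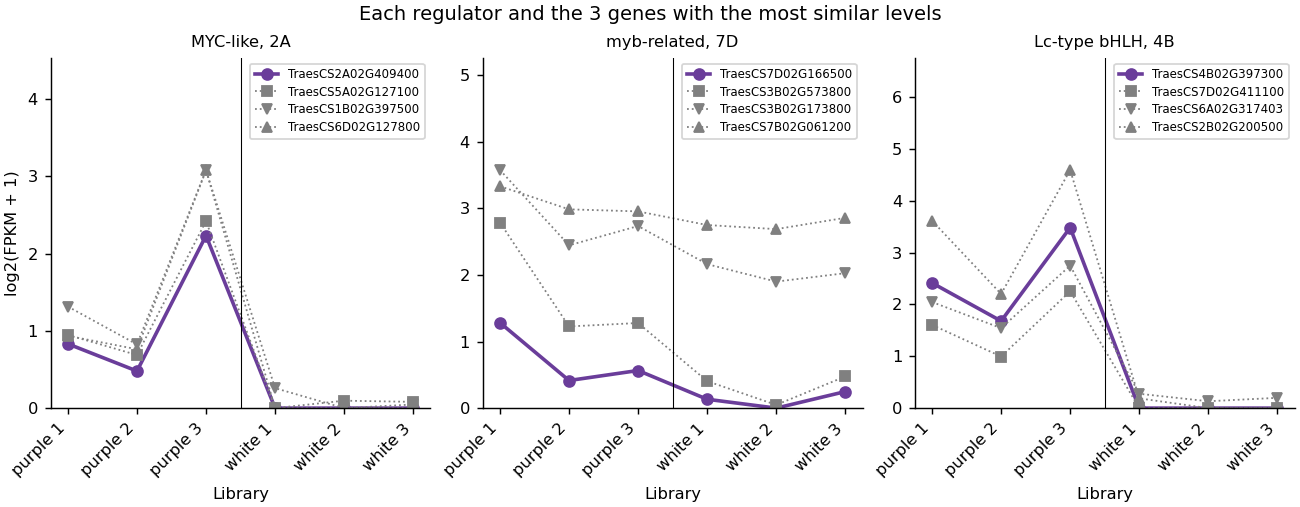
log2(FPKM + 1) of each regulator (solid line) and of the 3 genes with the highest Pearson r to it (dotted lines) in the 3 purple and 3 white libraries; lines join libraries for reading only. The 2A and 4B panels peak in purple replicate 3 and the 7D panel in purple replicate 1.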

How the data were processed

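RNA was extracted with Trizol and libraries were Illumina, per the labels' protocols. Tools named in the submitters' processing notes are cutadapt, HISAT2 and StringTie. Tool versions, the genome build, the annotation and whether counting used strand are not given in the sources used here. The deposited table pairs whole-number counts per gene with the authors' FPKM values, per the file headers. Every FPKM with a count of 0 was written by the authors as 0.0001 and was read as 0. Another 12 measurement columns, of 6 libraries, match no labelled sample and were not used. No identifier matched the supplied reference table, and no sequence is shown.

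The regulators and lists were chosen with earlier results of these data known. Lists follow patterns on descriptions or KO numbers. Counts were tested with edgeR 4.0.16 in R 4.3.3 (TMM scaling, trended dispersion, quasi-likelihood test, no replicate block) for the 48492 genes averaging 0.5 FPKM or more. Calls required a p below 0.05 after Benjamini-Hochberg adjustment over all of them, and a log2 difference of 1 or more in size. The 7D regulator, with a mean of 0.421 FPKM, did not pass that filter; those on 2A and 4B passed it through purple grain alone. SEs are the log2 difference divided by the square root of F. Folds are ratios of mean TMM-scaled CPM, with 3 counts per library as the floor for a group at 0. Genes named are the regulators, their flanking genes and subgenome candidates, called or highest-mean list genes and the 3 most alike per regulator; others are marked as named after their values were seen. DESeq2 1.42.0, limma 3.58.1, other scalings, filters and windows, a replicate block and leaving out libraries were alternatives. Libraries of a grain type differed beyond counting noise in every pair (chi-square per degree of freedom of at least 116).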

Additional observations from a re-analysis of the deposited data

How the results depend on the processing

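The 3 regulators were chosen by these same values and had all purple libraries above all white ones. Leaving out 1 library therefore could not turn their direction, and it was the same under the other scalings. Only the size could vary. When 1 library was left out, the log2 ratio ranged from 5.14 to 7.10 for the 2A gene and from 6.96 to 8.13 for the 4B gene, both lower bounds. For the 7D gene it ranged from 2.08 to 3.82. With library totals as the scaling, the median over all tested genes was -0.11 on the log2 scale, compared with 0.02 under TMM. Counts of called genes depended most on the test and on single libraries; the cause was not tested. Leaving out 1 library gave 229 to 2562 higher and 351 to 2411 lower genes in all, 0 to 2 and 1 to 3 in the regulator list, 1 to 7 and 0 to 6 in the enzyme list, and 0 to 2 in either direction among neighbours. DESeq2 called 4561 higher and 3008 lower in all, 2 and 5 regulators, 20 and 7 enzyme genes, and 4 higher neighbours. With limma on log2(FPKM + 0.1), 2008 genes were lower in all and 1 regulator was higher. Without the filter 1 regulator was higher; at a mean of at least 1 FPKM, 0 regulators were lower and 2 enzyme genes were higher, since fewer genes are tested. By description 10 of 126 tested enzyme genes were higher, and within 5 Mb 1 neighbour was lower. Deviations of same-numbered libraries had an r of 0.183, 0.00657 and 0.336 for numbers 1, 2 and 3. Purple replicates 1 and 3 correlated best with the white library of their own number and purple replicate 2 with white replicate 1 (r = 0.0918), so the numbers were not taken as pairs. With the replicate block, edgeR called 1551 higher and 996 lower genes in all, and 0 higher and 2 lower regulators, of which 1 was also called without it. Under the block, the calls of TraesCS1A02G102400 (adjusted p = 0.0531), TraesCS7D02G167000 (0.0597), TraesCS2B02G558400 (0.0516) and TraesCS7B02G401000 (0.0558) were lost. Among neighbours 1 was called higher with the block, and it was not the one called without it. Depth limits the 7D gene most, since it rests on 214 counts in purple and 25 in white grain.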
